A study of Mus musculus with 11 samples.

Results

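Fatty acid uptake and oxidation was followed in the embryonic mouse heart through 33 genes of the pathway, chosen by symbol and matched to Ensembl identifiers, from the fat-handling proteins of the cell surface to the electron carriers of the mitochondrion. They are 33 of the 55487 gene identifiers counted, and all 33 were among the 24177 genes tested, which had at least 10 counts summed over the 11 hearts. The study asked how loss of Pde2A, a phosphodiesterase that breaks down cAMP and cGMP, alters the transcriptome of the developing heart. RNA was taken from whole embryonic hearts at E14.5, with 1 stranded mRNA library per heart, from 5 knockout (KO) embryos (A, B, 14, D and 15) and 6 wild-type (WT) embryos (7, 11, 6, 8, H and E). All came from matings between heterozygous carriers of the line B6; 129P2-Pde2A<tm1Dgen>/H, in which the KO allele is constitutive and so present in every cell, and none was treated. Embryos of both sexes were collected, and the labels give no sex, litter or batch for a single heart. The p-values below set the difference between genotypes against the spread between these hearts, each taken as independent.

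Libraries held 35865537 to 42835382 counts on annotated genes in the sense of transcription, and these totals did not separate the genotypes (two-sided exact permutation test, p = 0.870). Levels are given as CPM, the read counts of a gene scaled to the library size, with TMM scaling between libraries. Pde2a itself (ENSMUSG00000110195, chr7:101421691-101512827) had 0, 2, 0, 1 and 1 counts in KO hearts A, B, 14, D and 15. In WT hearts 7, 11, 6, 8, H and E it had 0, 2, 0, 1, 0 and 0 counts, which gives no check of the genotype labels. Another annotated gene, Gm45837, lies on the same strand over 64.3% of the exon bases of Pde2a, and a read that falls on both is counted for neither. The tissue label was checked against cardiac muscle markers, all 21 of which were tested, with Myh7 at 13840 ± 2618 CPM in WT hearts (SD, n = 6).

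Long-chain fatty acids reach heart muscle from circulating lipoproteins, whose triglyceride is split by lipoprotein lipase at the vessel wall, and enter the cell with the help of membrane transporters. Inside, they are held by binding proteins, activated to acyl-CoA, and either stored in lipid droplets or carried as acylcarnitine into the mitochondrion, where the beta-oxidation spiral shortens them and passes electrons to the respiratory chain. The fetal heart draws mainly on glucose and lactate, and the shift to fatty acids around birth is driven by the nuclear receptor Ppara and its coactivator Ppargc1a.

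In KO hearts 7 members were higher in KO, namely Ppara, Ppargc1a, Lpl, Slc27a1, Plin2, Pnpla2 and Lipe, and 2 were lower, Slc25a20 and Acadm (edgeR quasi-likelihood test, adjusted p under 0.05 by Benjamini-Hochberg over all genes tested). These counts are 21.2% and 6.06% of the members, beside 8.93% and 5.67% of all genes tested, so the share of members that were lower was near that of all genes. The median log2 fold change of the 33 members was 0.01, against -0.02 for all genes tested, with 18 members above 0 and 15 below. All 7 higher members belong to the 13 regulators, uptake genes and droplet genes, a grouping made after the values were seen, and the 2 lower members belong to the 19 genes of the carnitine shuttle, the spiral and electron transfer. Among those 19 genes 0 were higher by edgeR, by DESeq2 or at an unadjusted p under 0.05. Every KO heart lay above every WT heart for 3 members (Lpl, Plin2 and Lipe) and below every WT heart for 1 (Acadm), where 5.38% and 3.11% of all genes tested did so. None of the 33 members reached a 2-fold change.

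Without single KO hearts the count of higher members moved: it was 4 without heart 14, 3 without heart D and 4 without heart 15. The count of lower members by edgeR was 0 without KO heart 14, D or 15 or WT heart 6, where 3, 2, 2 and 2 members were lower at an unadjusted p under 0.05, and it was 1 without WT heart 7, H or E. Over all genes tested, 2160 were higher and 1372 lower. The higher count was 1408, 1288 and 1381 without KO hearts 14, D and 15, and the lower count was 2165, 450, 414 and 537 without KO hearts A, 14, D and 15, 847, 599, 776 and 833 without WT hearts 7, 6, 8 and H, and 2354 by DESeq2. By DESeq2 with all hearts, 9 members were higher and 2 lower. Alb, the gene for the liver protein albumin, exceeded 1 CPM in KO heart D and in WT hearts 11, H and E, so the fit was repeated without these 4 hearts, a choice made after seeing the data. With 4 KO and 3 WT hearts, 0 members passed edgeR's test in either direction, 9 were higher and 2 lower at an unadjusted p under 0.05, and DESeq2 was not run. All 9 called members had the same direction there, with log2 fold changes of 0.85 for Ppara, 0.62 for Ppargc1a, 0.65 for Lpl, 0.51 for Slc27a1, 0.30 for Plin2, 0.31 for Pnpla2, 0.64 for Lipe, -0.17 for Slc25a20 and -0.24 for Acadm. Over all genes tested 482 were higher and 50 lower without these hearts.

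**Figure D1:**
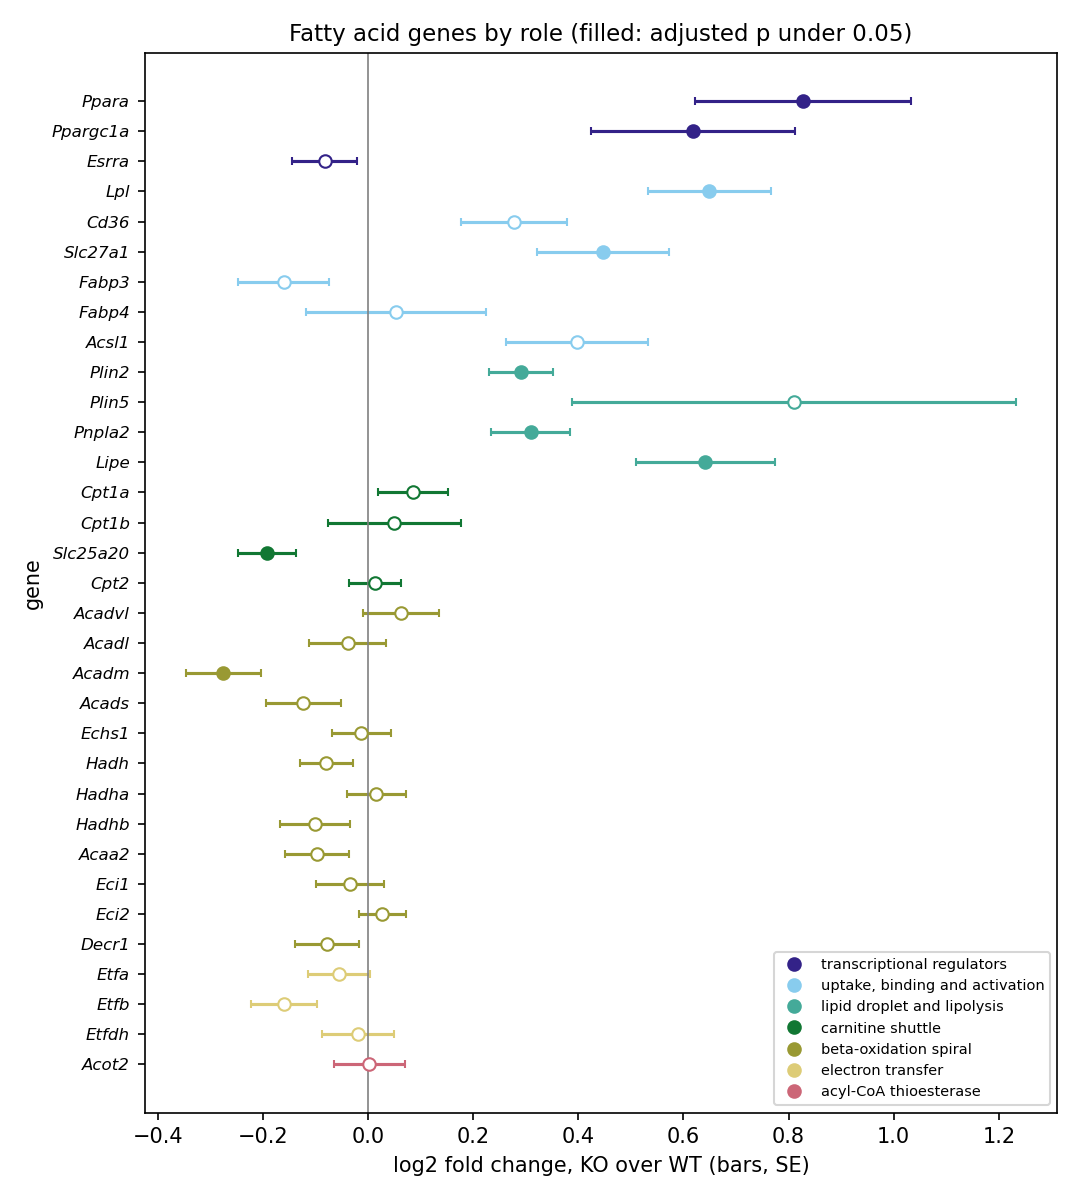
Log2 fold change, KO over WT, of each of the 33 genes on the horizontal axis, with bars for the SE (5 KO and 6 WT hearts), coloured by role, filled where the adjusted p is under 0.05. The 7 filled points above 0 are regulators, uptake genes and droplet genes, from 0.29 (Plin2) to 0.83 (Ppara), and the 2 filled points below 0 are Slc25a20 (-0.19) and Acadm (-0.27).

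In WT hearts the members spanned a wide range of levels, compared here as CPM per kilobase of merged exons (mean ± SD, n = 6). Acadl, the long-chain acyl-CoA dehydrogenase, stood first at 323 ± 37.4 CPM per kilobase. The muscle binding protein gene Fabp3 (187 ± 27.5 CPM per kilobase) and the thiolase gene Acaa2 (184 ± 17.3 CPM per kilobase) came next and differed by less than their SD. Etfa, the alpha subunit of the electron carrier, followed at 140 ± 12.3 CPM per kilobase. Acadm and Hadha, at 61.2 ± 6.65 and 60.4 ± 4.88 CPM per kilobase, again lay within their SD of each other. At the low end were Slc27a1 (2.73 ± 0.279 CPM per kilobase), Ppara (1.91 ± 0.198), Lipe (1.68 ± 0.104), Cpt1b (1.20 ± 0.172) and Plin5 (0.150 ± 0.0751), and 32 of the 33 members reached 1 CPM. The length used moved some genes. Per kilobase of exon not shared with another gene on the same strand, also chosen after seeing the data, Cpt1b was at 6.44, above Slc27a1, Ppara and Lipe, and Etfb at 83.4 in place of 34.8 CPM per kilobase, above Acadvl. Per kilobase of the principal transcript, a scale chosen after seeing the data, Fabp4 moved from 24.3 to 121.7 CPM per kilobase and Echs1 from 19.2 to 102.2 CPM per kilobase, while Acadl, Fabp3, Acaa2 and Etfa were the first 4 on both scales.

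Ppara encodes the nuclear receptor that switches on genes of fatty acid oxidation. In KO hearts A, B, 14, D and 15, Ppara (ENSMUSG00000022383, chr15:85734983-85802819) was at 7.88, 7.91, 14.4, 16.6 and 18.2 CPM, and in WT hearts the lowest, median and highest values were 6.53, 7.11 and 8.33 CPM. KO hearts 14, D and 15 lay above every WT heart, and A and B lay inside the WT range. Its log2 fold change was 0.83 (SE 0.21), a 1.77-fold difference with 3 of 5 KO hearts above the highest WT heart (edgeR quasi-likelihood test, Benjamini-Hochberg adjusted p = 0.0199). Without KO heart 14, D or 15, edgeR's Benjamini-Hochberg adjusted p was 0.0526, 0.0631 or 0.0578, at log2 fold changes of 0.68 to 0.97 over all hearts left out singly, and it ranged from 0.00111 to 0.165 over all alternatives.

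Ppargc1a encodes the coactivator that works with Ppara and the estrogen-related receptors on mitochondrial genes. Its levels (ENSMUSG00000029167, chr5:51454250-51567726) were 127, 118, 184, 224 and 276 CPM in KO hearts A, B, 14, D and 15, and 100.7, 119.6 and 153 CPM as the lowest, median and highest WT value. The same 3 KO hearts, 14, D and 15, were above all WT hearts, with A and B inside the WT range. The log2 fold change was 0.62 (SE 0.19), with 3 of 5 KO hearts above the highest WT heart (edgeR quasi-likelihood test, Benjamini-Hochberg adjusted p = 0.0495). This call was lost without any of 8 hearts: edgeR's Benjamini-Hochberg adjusted p was 0.0933, 0.130 and 0.138 without KO hearts 14, D and 15. Without WT hearts 7, 11, 6, 8 and E, edgeR's Benjamini-Hochberg adjusted p was 0.0802, 0.0863, 0.0844, 0.0946 and 0.0704, within a range of 0.00987 to 0.231 over all alternatives and log2 fold changes of 0.44 to 0.74. Esrra, the estrogen-related receptor among the members, had a log2 fold change of -0.08 (SE 0.06) with 2 of 5 KO hearts below the lowest WT heart and did not pass (edgeR, Benjamini-Hochberg adjusted p = 0.407), which does not show that its level was the same.

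Lpl encodes lipoprotein lipase, which frees fatty acids from circulating triglyceride. Lpl (ENSMUSG00000015568, chr8:68880491-68907448) was at 334, 406, 447, 510.2 and 577 CPM in KO hearts A, B, 14, D and 15, and at 261, 288 and 319 CPM in the lowest, median and highest WT heart. All 5 KO hearts lay above all 6 WT hearts, with A the closest to them and 15 the farthest. The log2 fold change was 0.65 (SE 0.12), higher in 5 of 5 KO hearts than in any WT heart (edgeR quasi-likelihood test, Benjamini-Hochberg adjusted p = 0.00370). The call held without each single heart, at log2 fold changes of 0.55 to 0.75.

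The fatty acid transport protein gene Slc27a1 (ENSMUSG00000031808, chr8:71568882-71587302), whose product also activates fatty acids as they enter, was at 17.6, 16.9, 22.2, 23.5 and 28.5 CPM in KO hearts A, B, 14, D and 15. Its lowest, median and highest WT values were 13.2, 15.9 and 18.03 CPM. KO hearts 14, D and 15 were above the WT range, and A and B were in its upper part. Its log2 fold change was 0.45 (SE 0.13), with 3 of 5 KO hearts above the highest WT heart (edgeR quasi-likelihood test, Benjamini-Hochberg adjusted p = 0.0322). Leaving out KO heart 14, D or 15 gave an edgeR Benjamini-Hochberg adjusted p of 0.0725, 0.0869 or 0.0809, and leaving out WT heart 7, 6, 8 or H gave 0.0518, 0.0642, 0.0662 or 0.0591, within 0.00636 to 0.169 over all alternatives and log2 fold changes of 0.33 to 0.53.

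Cd36, the membrane fatty acid translocase, ran from 190 to 266 CPM in KO hearts and from 155 to 211 CPM in WT hearts. Only KO hearts D and 15 were above the WT range. The log2 fold change of Cd36 was 0.28 (SE 0.10), short of the threshold by edgeR (Benjamini-Hochberg adjusted p = 0.0809, 2 of 5 KO hearts above the highest WT heart). Without KO heart A it passed (edgeR, Benjamini-Hochberg adjusted p = 0.0386, log2 fold change 0.33), as it did by DESeq2 (Benjamini-Hochberg adjusted p = 0.0414), in a range of 0.0386 to 0.205 over all alternatives. Acsl1, the main acyl-CoA synthetase of heart muscle, ran from 79.7 to 129.9 CPM in KO and from 64.6 to 98.8 CPM in WT hearts, again with D and 15 alone above the WT range. Its log2 fold change of 0.40 (SE 0.13) missed the threshold by edgeR (Benjamini-Hochberg adjusted p = 0.0638, 2 of 5 KO hearts above the highest WT heart). It passed without KO heart A or WT heart H (edgeR, Benjamini-Hochberg adjusted p = 0.0206 and 0.0377) and by DESeq2 (0.0232), in a range of 0.0206 to 0.167 over all alternatives.

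Fabp3 and Fabp4 are fatty acid binding proteins, the first of cardiac muscle and the second of endothelium, adipocytes and macrophages. Fabp3 was at 137, 141, 132, 135 and 142 CPM in KO hearts A, B, 14, D and 15, with WT values of 130.7, 150.4 and 184 CPM as lowest, median and highest. All 5 KO hearts lay in the lower part of the WT range. Fabp4 was at 81.6, 93.9, 119.6, 121.3 and 149 CPM in the same KO hearts, with WT values of 77.8, 100.9 and 140.3 CPM. Only KO heart 15 exceeded the WT range. Neither passed edgeR's test, with log2 fold changes of -0.16 (SE 0.09) for Fabp3 and 0.05 (SE 0.17) for Fabp4. The log2 ratio of Fabp3 to Fabp4 within each heart was 0.75, 0.59, 0.15, 0.15 and -0.07 in KO hearts A, B, 14, D and 15, with 0.16, 0.49 and 0.80 as lowest, median and highest WT value. KO hearts 14, D and 15 were below all WT hearts and A and B inside their range. The mean ratio differed by -0.20 (two-sided exact permutation test over 462 assignments of the 11 hearts, p = 0.286, Benjamini-Hochberg adjusted over 4 ratios p = 0.381), and the smallest p this design can give is 0.0022. The difference was -0.31 without KO heart A and -0.11 without KO heart 15.

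Of the 4 lipid droplet members, 3 were higher and 0 lower by edgeR (0 lower by DESeq2 and at an unadjusted p under 0.05), with a median log2 fold change of 0.48. Over all genes tested 8.93% were higher and 5.67% lower. Plin2 coats droplets in most cells. Plin2 (ENSMUSG00000028494, chr4:86648386-86670060) was at 61.2, 61.9, 69.6, 68.6 and 78.9 CPM in KO hearts A, B, 14, D and 15, and at 54.3, 55.6 and 57.1 CPM in the lowest, median and highest WT heart. The WT hearts were close together and every KO heart lay above them. For Plin2 the log2 fold change was 0.29 (SE 0.06), higher in 5 of 5 KO hearts than in any WT heart (edgeR quasi-likelihood test, Benjamini-Hochberg adjusted p = 0.00882), and 0.24 to 0.33 with single hearts left out, each past the threshold.

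Pnpla2 encodes adipose triglyceride lipase, which takes the first fatty acid off stored triglyceride. Pnpla2 (ENSMUSG00000025509, chr7:141455198-141460743) was at 45.9, 58.5, 52.8, 58.2 and 64.2 CPM in KO hearts A, B, 14, D and 15, and at 41.5, 44.8 and 48.7 CPM in the lowest, median and highest WT heart. KO heart A lay inside the WT range and the other 4 above it. The log2 fold change was 0.31 (SE 0.08), with 4 of 5 KO hearts above the highest WT heart (edgeR quasi-likelihood test, Benjamini-Hochberg adjusted p = 0.0185). Without KO heart D, edgeR's Benjamini-Hochberg adjusted p was 0.0524, in a range of 0.00147 to 0.154 over all alternatives, with log2 fold changes of 0.26 to 0.38.

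Lipe encodes hormone-sensitive lipase, which acts on diacylglycerol and is switched on by protein kinase A. Lipe (ENSMUSG00000003123, chr7:25379527-25398710) was at 11.4, 12.7, 15.4, 16.4 and 21.5 CPM in KO hearts A, B, 14, D and 15, and at 9.23, 9.91 and 10.7 CPM in the lowest, median and highest WT heart. All KO hearts were above all WT hearts, heart A by the least and heart 15 by the most. For Lipe the log2 fold change was 0.64 (SE 0.13), higher in 5 of 5 KO hearts than in any WT heart (edgeR quasi-likelihood test, Benjamini-Hochberg adjusted p = 0.00833), and 0.50 to 0.74 with single hearts left out, each past the threshold. Plin5, the droplet coat protein of oxidative muscle, was the scarcest member, at 0.157 to 0.799 CPM in KO and 0.109 to 0.547 CPM in WT hearts. Its log2 fold change of 0.81 had an SE of 0.42 and did not pass (edgeR, Benjamini-Hochberg adjusted p = 0.214, 3 of 5 KO hearts above the highest WT heart).

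**Figure D2:**
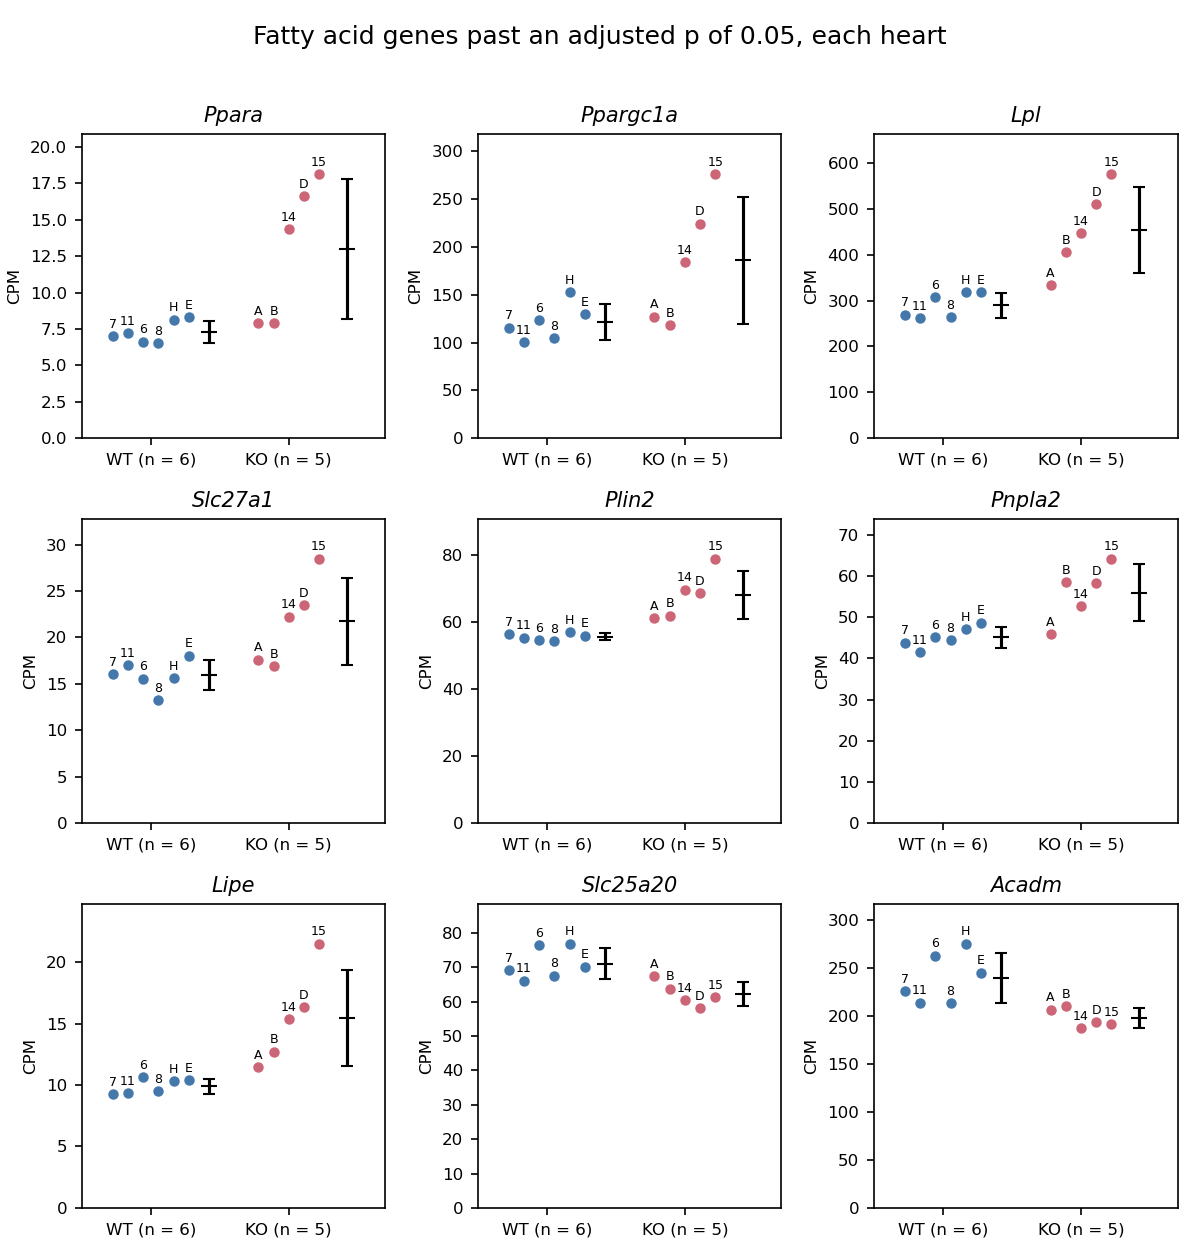
CPM in each heart (vertical axes, from 0) of the 9 genes past an adjusted p of 0.05, with WT (n = 6) and KO (n = 5) hearts as single points and the mean and SD beside them. For Lpl, Plin2 and Lipe every KO heart lies above every WT heart and for Acadm every KO heart lies below, while Ppara, Ppargc1a and Slc27a1 have 3 KO hearts above the WT range.

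The carnitine shuttle moves activated fatty acids into the mitochondrion. Of its 4 members 1 was lower and 0 higher by edgeR, beside 5.67% and 8.93% of all genes tested. By DESeq2 or at an unadjusted p under 0.05, 0 were higher. The lower gene, Slc25a20, encodes the carrier that exchanges acylcarnitine for carnitine across the inner membrane. Slc25a20 (ENSMUSG00000032602, chr9:108662088-108684641) was at 67.5, 63.8, 60.4, 58.2 and 61.3 CPM in KO hearts A, B, 14, D and 15, and at 66.2, 69.8 and 76.9 CPM in the lowest, median and highest WT heart. KO heart A lay inside the WT range and the other 4 below it. In whole hearts, fewer cells of a type and less RNA per cell cannot be told apart. The log2 fold change was -0.19 (SE 0.05), with 4 of 5 KO hearts below the lowest WT heart (edgeR quasi-likelihood test, Benjamini-Hochberg adjusted p = 0.0344). Without KO heart 14, D or 15, edgeR's Benjamini-Hochberg adjusted p was 0.0858, 0.0862 or 0.0644, and without WT heart 7, 6, H or E it was 0.0508, 0.0754, 0.0610 or 0.0537, in a range of 0.00625 to 0.212 over all alternatives and log2 fold changes of -0.22 to -0.17.

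Carnitine palmitoyltransferase 1, the controlled entry step, has a liver form (Cpt1a) and a muscle form (Cpt1b). Cpt1a was at 112, 101.1, 100.2, 114 and 119 CPM in KO hearts A, B, 14, D and 15, and at 91.8, 104.5 and 115 CPM in the lowest, median and highest WT heart. Cpt1b was at 4.12, 3.82, 4.36, 3.61 and 5.04 CPM in the same KO hearts, and at 3.40, 3.99 and 4.80 CPM in WT hearts. For both genes 4 KO hearts lay inside the WT range and heart 15 above it, and neither passed, with log2 fold changes of 0.09 (SE 0.07) and 0.05 (SE 0.13). In WT hearts Cpt1a was at 13.5 ± 1.13 and Cpt1b at 1.20 ± 0.172 CPM per kilobase of exon (SD, n = 6). Gm44502, an annotated gene with 0 counts in all hearts, shares 81.4% of the exon bases of Cpt1b on the same strand, where reads are counted for neither gene. Over the 628 exon bases of Cpt1b that are not shared, a length chosen after seeing the data, its WT level was 6.44 ± 0.926 CPM per kilobase. The log2 ratio of Cpt1b to Cpt1a was -4.75, -4.71, -4.51, -4.96 and -4.54 in KO hearts A, B, 14, D and 15, and -4.86, -4.66 and -4.47 as lowest, median and highest WT value. Only KO heart D was outside the WT range, and the means differed by -0.04 (two-sided exact permutation test, p = 0.721, also after Benjamini-Hochberg adjustment over 4 ratios). The sign of this difference turned without KO heart D (0.03) and without WT heart 6 (0.00). Cpt2, which hands the fatty acid back to coenzyme A inside the mitochondrion, had a log2 fold change of 0.01 (SE 0.05). It ran from 52.9 to 57.2 CPM in KO hearts, inside the WT range of 49.8 to 59.2 CPM.

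The beta-oxidation spiral holds 12 members, of which 1 (8.33%) was lower and 0 higher by edgeR. Over all genes tested 5.67% were lower and 8.93% higher. By DESeq2 and at an unadjusted p under 0.05, 0 of the 12 spiral members were higher. Their log2 fold changes ran from -0.27 to 0.06 with a median of -0.06, and 9 were below 0. The lower gene, Acadm, encodes the medium-chain acyl-CoA dehydrogenase. Acadm (ENSMUSG00000062908, chr3:153922357-153944632) was at 206.5, 210.5, 187, 194 and 191.5 CPM in KO hearts A, B, 14, D and 15, and at 213, 236 and 275 CPM in the lowest, median and highest WT heart. Every KO heart was below every WT heart, with A and B just under the lowest of them. Its log2 fold change was -0.27 (SE 0.07), lower in 5 of 5 KO hearts than in any WT heart (edgeR quasi-likelihood test, Benjamini-Hochberg adjusted p = 0.0231). Without KO heart 14, D or 15 or WT heart 6, edgeR's Benjamini-Hochberg adjusted p was 0.0642, 0.0571, 0.0530 or 0.0558, in a range of 0.00290 to 0.170 over all alternatives and log2 fold changes of -0.31 to -0.23.

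The other acyl-CoA dehydrogenases, which open each turn of the spiral for chains of different length, did not pass: the log2 fold changes were 0.06 for Acadvl, -0.04 for Acadl and -0.12 for Acads. For Acads 3 of 5 KO hearts (14, D and 15) were below the lowest WT heart, as were 3 of 5 for Decr1, 2 of 5 for Hadh and Hadhb and 1 of 5 for Echs1. The hydratase Echs1 and the dehydrogenase Hadh, which take the next steps, had log2 fold changes of -0.01 and -0.08, and the thiolase Acaa2, which ends the turn, had -0.10. The auxiliary enzymes for unsaturated chains had log2 fold changes of -0.03 (Eci1), 0.03 (Eci2) and -0.08 (Decr1). For 6 of the 12 spiral genes (Acadvl, Acadl, Hadha, Acaa2, Eci1 and Eci2) every KO heart lay inside the WT range. Acadl ran from 602.1 to 671 CPM in KO and from 576 to 737 CPM in WT hearts. Acaa2 ran from 253 to 271 CPM in KO and from 248 to 308 CPM in WT hearts. For both genes the KO hearts were the closer together. Acadvl ran from 195 to 216 CPM in KO and from 174 to 220.1 CPM in WT hearts. Eci1 ran from 105.5 to 115 CPM in KO and from 97.5 to 126 CPM in WT hearts, again the wider range.

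Hadha and Hadhb encode the subunits of the trifunctional protein, which carries out the last steps for long chains, and their annotated starts lie head to head on chromosome 5. Hadha was at 523, 541, 509, 535 and 559 CPM in KO hearts A, B, 14, D and 15, and at 484, 520.3 and 579.8 CPM in the lowest, median and highest WT heart. Hadhb was at 149, 151, 129.6, 141 and 133 CPM in the same KO hearts, and at 136, 147 and 174 CPM in WT hearts. The KO hearts lay inside the WT range for Hadha, and 14 and 15 lay below it for Hadhb. The log2 ratio of Hadha to Hadhb was 1.81, 1.84, 1.97, 1.92 and 2.07 in KO hearts A, B, 14, D and 15, and 1.74, 1.81 and 1.86 as lowest, median and highest WT value. KO hearts 14, D and 15 were above every WT heart. The mean ratio was higher by 0.12 in KO, at p = 0.0260 by a two-sided exact permutation test and 0.104 after Benjamini-Hochberg adjustment over 4 ratios, so it did not pass. Without KO heart A the difference was 0.15 and passed (exact permutation test, Benjamini-Hochberg adjusted p = 0.0381), in a range of 0.0381 to 0.254 over all alternatives.

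Electrons from the dehydrogenases pass to the electron transfer flavoprotein, made of Etfa and Etfb, and from it through Etfdh to the respiratory chain. By edgeR 0 of these 3 genes passed, with 1 lower at an unadjusted p under 0.05 and 0 by DESeq2. Etfa was at 246, 252, 238, 245 and 253 CPM in KO hearts A, B, 14, D and 15, and at 219, 257 and 287 CPM in the lowest, median and highest WT heart. Etfb was at 37.6, 40.6, 35.96, 33.1 and 34.1 CPM in the same KO hearts, and at 37.4, 40.3 and 44.9 CPM in WT hearts. All KO hearts were inside the WT range for Etfa, and 14, D and 15 were below it for Etfb. The log2 fold change of Etfb was -0.16 (SE 0.06), 3 of 5 KO hearts being below the lowest WT heart (edgeR, Benjamini-Hochberg adjusted p = 0.102), and it passed without KO heart B (edgeR, Benjamini-Hochberg adjusted p = 0.0333, range 0.0333 to 0.322 over all alternatives, log2 fold change -0.20). Those of Etfa and Etfdh were -0.06 and -0.02. Etfdh ran from 204 to 227 CPM in KO hearts, inside the WT range of 192 to 246 CPM. In Etfb, 58.2% of the exon bases are shared on the same strand with other annotated genes, among them Gm45233 with 0 counts. Its WT level of 34.8 ± 2.23 CPM per kilobase of exon became 83.4 ± 5.35 CPM per kilobase over the 486 bases not shared (SD, n = 6). The log2 ratio of Etfa to Etfb was 2.71, 2.64, 2.73, 2.89 and 2.89 in KO hearts A, B, 14, D and 15, and 2.55, 2.67 and 2.79 in the lowest, median and highest WT heart. KO hearts D and 15 exceeded the WT range, and the means differed by 0.11 (two-sided exact permutation test, p = 0.106, Benjamini-Hochberg adjusted over 4 ratios p = 0.212). Acot2, a mitochondrial thioesterase that releases fatty acids from coenzyme A, had a log2 fold change of 0.00 (SE 0.07). It ran from 43.9 to 49.1 CPM in KO hearts, inside the WT range of 40.03 to 50.8 CPM. Reads that fit both Acot2 and its close paralog Acot1 may not have been counted, and how many there were was not measured.

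The KO hearts differed among themselves in the genes that were higher. In all 7 higher members KO heart 15 had the highest KO value, and heart A (5 genes) or heart B (2 genes) the lowest. Hearts 14, D and 15 were the 3 highest KO hearts in 6 of these 7 genes, the exception being Pnpla2, where B exceeded 14 and D. Of the 24 members that did not pass, 14 had heart 15 as the highest KO heart. In 3 of those 24, hearts 14, D and 15 were the 3 highest KO hearts. The SD of log2 CPM among KO hearts was larger than among WT hearts in 7 of the 7 higher members (median 0.31 against 0.14). It was larger in 7 of the 24 that did not pass. The largest KO SD of any member was that of Plin5 (0.85), which did not pass. In the spiral the reverse held in 11 of 12 genes, Acads being the exception, with a median SD of 0.07 in KO and 0.12 in WT hearts. WT hearts 7, 11 and 8 were the 3 lowest WT hearts in all 12 spiral genes and in 28 of the 33 members, and H or 6 was the highest in all 12 and in 28 of the 33. Over the 33 members, 29, 32, 4, 30, 1 and 5 were below the WT mean in WT hearts 7, 11, 6, 8, H and E.

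**Figure D3:**
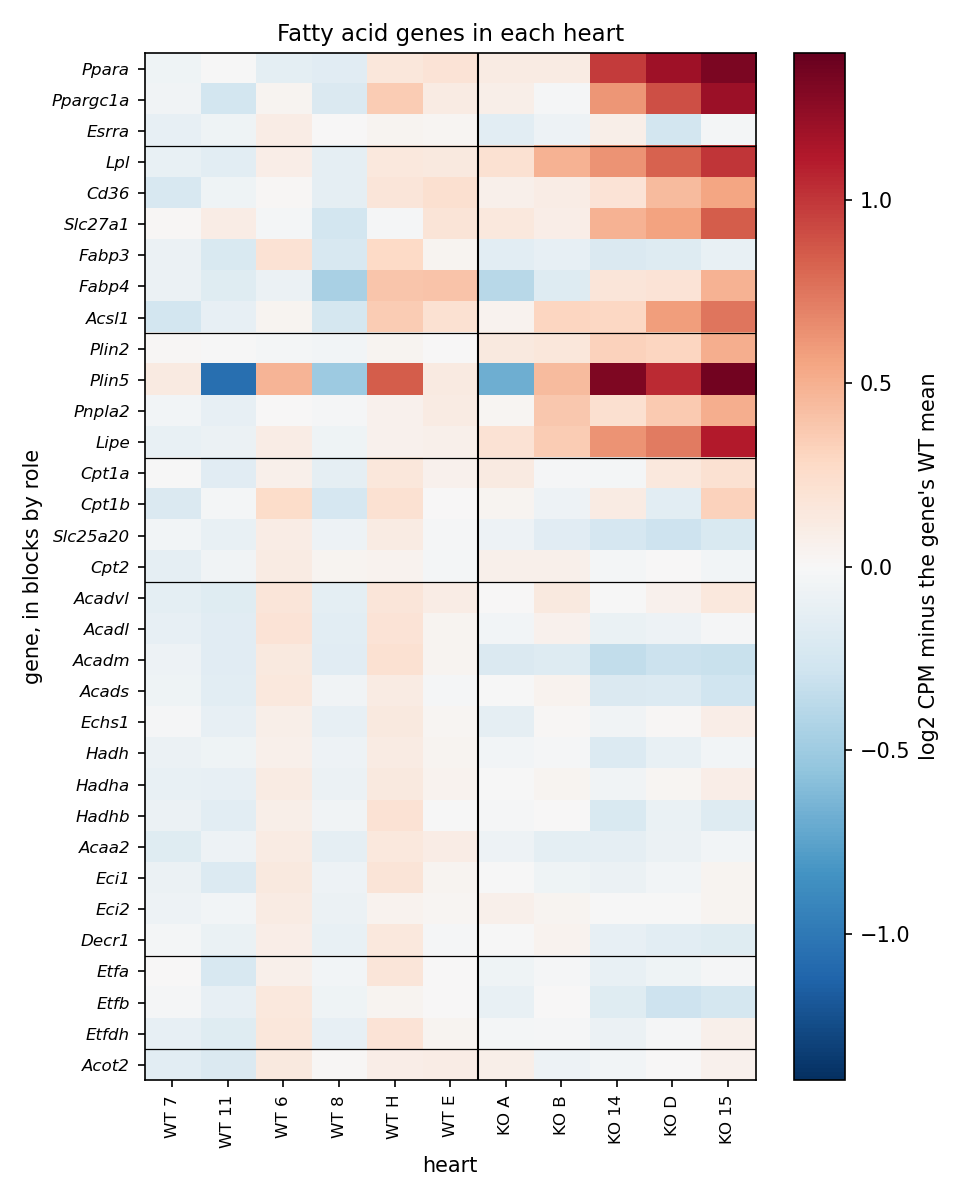
Log2 CPM of each of the 33 genes (vertical axis, in blocks by role) minus that gene's WT mean, in each of 6 WT and 5 KO hearts (horizontal axis), red above the mean and blue below it. Most members are below the mean in WT hearts 7, 11 and 8 (29, 32 and 30 of 33), and KO hearts 14, D and 15 are the 3 highest KO hearts in 6 of the 7 higher genes, all but Pnpla2.

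KO heart 15, the highest KO heart in all 7 higher members and in 21 of all 33, was also the highest in hypoxia-responsive genes. Of 12 such genes, none of them a member, 11 were higher in KO by edgeR, with a median log2 fold change of 1.17 and Slc2a1 as the most abundant gene. Their summed level was 989, 1274, 2240, 2512 and 3214 CPM in KO hearts A, B, 14, D and 15, and 884.7, 904.9 and 967 CPM in the lowest, median and highest WT heart. Ppara, Lpl and Lipe had the same order of KO hearts, Ppargc1a, Slc27a1, Plin2 and Pnpla2 did not, and the part of this response in their differences was not tested. Ndrg1 (log2 fold change 2.31, SE 0.45) and Egln3 (1.98, SE 0.35) changed most, and without the 4 hearts above 1 CPM of Alb they were at 2.44 and 2.10 and did not pass. The share of counts on mitochondrial genes was 3.21, 2.91, 2.30, 1.94 and 2.07% in KO hearts A, B, 14, D and 15, and 3.11 to 3.60% in WT hearts, also lowest in 14, D and 15.

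Cardiac muscle markers are given beside the mitochondrial members, which muscle expresses strongly. Of 21, 8 were lower and 0 higher by edgeR (12 lower and 0 higher by DESeq2, 13 lower and 0 higher at an unadjusted p under 0.05), with a median log2 fold change of -0.25, none at 0 counts, and Tcap (-0.88, SE 0.13) and Ttn (-0.51, SE 0.11) as the largest. Without the 4 hearts above 1 CPM of Alb, Ttn was at -0.43 and did not pass. Their mean log2 CPM was 10.34, 10.41, 10.34, 10.25 and 10.33 in KO hearts A, B, 14, D and 15, below all WT hearts. It was 10.51, 10.45 and 10.52 in WT hearts 7, 11 and 8, which were also low in the spiral genes, and 10.77, 10.67 and 10.57 in 6, H and E. Their summed level was 48690, 51310, 50580, 48090 and 54530 CPM in the KO hearts, and 48400, 54560 and 64540 CPM as lowest, median and highest WT value. Acadm, like this mean, was below all WT hearts in every KO heart, and Slc25a20 in all but heart A. In 6 of the 12 spiral genes every KO heart lay inside the WT range. The part of the markers in these levels was not tested.

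Endothelium, macrophages and adipocytes also express Lpl, Cd36 or Fabp4. Of 12 endothelial markers 4 were higher and 1 lower, with Cdh5 the most abundant (317 ± 34.7 CPM in KO, SD, n = 5), Emcn higher (log2 fold change 0.50, SE 0.09, and 0.45 and not past the threshold without the 4 hearts above 1 CPM of Alb) and Cldn5 lower (-0.79, SE 0.11). The endothelial list summed to 1768, 1921, 1719, 1674 and 1735 CPM in KO hearts A, B, 14, D and 15, and to 1363, 1556 and 1632 CPM in the lowest, median and highest WT heart. Of 11 macrophage markers 10 were higher, led in level by Csf1r and in change by Fcgr3 (1.43, SE 0.18) and F13a1 (1.30, SE 0.19). The macrophage list summed to 242, 290, 329, 316 and 331 CPM in the KO hearts, and to 113, 158 and 183 CPM in WT hearts, so both sums were above the WT range in every KO heart. By mean log2 CPM the macrophage list was too, but the endothelial list was at 6.60, 6.70, 6.59, 6.49 and 6.61 in KO hearts A, B, 14, D and 15 and at 6.33, 6.49 and 6.59 as lowest, median and highest WT value, with 14 and D inside the WT range. The part of these lists in the level of Lpl was not tested. Most adipocyte markers had few counts or none. Of 8, only Cidea (3.64 CPM in KO, 3.22 CPM in WT) and Adipoq (0.0263 and 0.0603 CPM) were tested and 0 passed by edgeR, by DESeq2 or at an unadjusted p under 0.05, and Lep and Cfd had 0 counts in every heart. The 2 tested adipocyte genes summed to 2.69, 3.64, 4.08, 4.03 and 3.91 CPM in the KO hearts, and to 2.69, 3.16 and 4.06 CPM in WT hearts.

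Other cell sources were looked at through their own lists. Of 9 erythroid markers 8 were tested and 7 were higher, with Slc4a1 the most abundant in KO hearts (381 ± 94.8 CPM, SD, n = 5), and Hemgn (log2 fold change 4.94, SE 0.38) and Klf1 (4.10, SE 0.32) changing most. Alas2, named after its values were seen, was the most abundant of them in WT hearts (77.0 to 359.6 CPM) and did not pass, with a log2 fold change of -0.60. The tested genes summed to 501, 1013, 808.6, 758 and 826 CPM in KO hearts A, B, 14, D and 15, and to 125, 267 and 517 CPM in WT hearts, and their part in the members' differences was not tested. Of 8 fibroblast markers 3 were higher, Col3a1 being the most abundant, with Postn at 0.42 (SE 0.08) and Tcf21 at 0.30 (SE 0.07), the latter lost without KO heart 14 (edgeR, Benjamini-Hochberg adjusted p = 0.0501, log2 fold change 0.27, range 0.000854 to 0.208 over all alternatives). The fibroblast list summed to 7242, 7097, 9082, 11490 and 9885 CPM in the KO hearts, and to 5990, 7756 and 11080 CPM in WT hearts. Of 7 skeletal muscle markers, led in level by Ckm, 1 was higher, Tnnt3 (1.36, SE 0.41), past the threshold also without KO heart A or WT heart 8. Without KO hearts B, 14, D and 15 and WT hearts 7, 11, 6, H and E its edgeR Benjamini-Hochberg adjusted p was 0.102, 0.0657, 0.101, 0.0577, 0.0759, 0.0607, 0.0866, 0.0771 and 0.0732, in a range of 0.0164 to 0.311 over all alternatives and log2 fold changes of 0.95 to 1.72. That list summed to 495, 729.9, 612, 834 and 760.0 CPM in the KO hearts, and to 474, 675 and 822 CPM in WT hearts. Its mean log2 CPM was 2.11, 4.81, 2.82, 4.60 and 2.97 in KO hearts A, B, 14, D and 15, with 2.34, 2.84 and 3.77 as lowest, median and highest WT value. KO hearts B and D stood apart, with Myh3 at 71.0 and 86.7 CPM there, against at most 2.31 CPM in the other KO hearts and 16.7 CPM in WT hearts, a gene named after its values were seen. Of 8 liver markers, led in mean WT level by Afp, 0 passed by edgeR or DESeq2 and 2 were lower at an unadjusted p under 0.05. That mean rested on WT hearts 11, H and E, and Afp was at most 0.939 CPM in WT hearts 7, 6 and 8. The liver list summed to 6.16, 4.79, 6.35, 45.0 and 7.49 CPM in the KO hearts, and to 4.28, 23.1 and 122 CPM in WT hearts.

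A wider list of 75 other genes of fatty acid handling, all tested, gave 16 higher (21.3%) and 2 lower (2.67%), with a median log2 fold change of 0.06. Over all genes tested these shares were 8.93% and 5.67%. Among 15 further regulators 6 were higher (Ppard, Pparg, Ppargc1b, Esrrb, Klf15 and Lpin1), and among 9 droplet genes 5 were (Plin3, Plin4, G0s2, Hilpda and Dgat2). Of 17 uptake genes Fabp5 and Vldlr were higher and Fabp7 lower, of 6 carnitine and malonyl-CoA genes Slc22a5 was lower, and of 9 other mitochondrial genes Acadsb was higher. Of 5 ketone body and fuel switch genes 0 passed by edgeR or DESeq2, with 1, Pdk4, higher at an unadjusted p under 0.05. Those of these genes given without a value were named after their values were seen. The count of higher genes was 8 without KO heart 14, 5 without D, 6 without 15, 8 without WT heart 8 and 1 without the 4 hearts above 1 CPM of Alb. The count of lower genes by edgeR was 0 without KO heart 14 or 15, WT heart 6, H or E, or the 4 hearts, where 5, 6, 5, 6, 6 and 3 were lower at an unadjusted p under 0.05. It was 1 without KO heart D, WT heart 7 or 11 or the filter on low counts, and 4 by DESeq2.

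For the 5 wider genes with the largest rises (Plin4, Dgat2, Klf15, Hilpda and Lpin1), 14, D and 15 were the 3 highest KO hearts, as in 6 of the 7 higher members. Plin4, another droplet coat gene, was at 0.887, 2.10, 4.16, 3.64 and 6.94 CPM in KO hearts A, B, 14, D and 15, and at 0.183, 0.678 and 0.959 CPM in the lowest, median and highest WT heart. Only KO heart A was inside the WT range, and the log2 fold change was 2.44 (SE 0.46), with 4 of 5 KO hearts above the highest WT heart (edgeR quasi-likelihood test, Benjamini-Hochberg adjusted p = 0.00459). Dgat2, which makes triglyceride, had a log2 fold change of 1.06 (SE 0.23), with 3 of 5 KO hearts above the highest WT heart (edgeR, Benjamini-Hochberg adjusted p = 0.0117). For Klf15, a transcription factor of lipid use in heart muscle, it was 1.01 (SE 0.23), with 4 of 5 above (edgeR, Benjamini-Hochberg adjusted p = 0.0147). These 3 calls held without each single heart. None passed without the 4 hearts above 1 CPM of Alb. There edgeR's Benjamini-Hochberg adjusted p was 0.125 for Plin4, 0.129 for Dgat2 and 0.0823 for Klf15. The log2 fold changes were 2.49, 1.10 and 1.07.

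Hilpda, a droplet protein that inhibits Pnpla2, had a log2 fold change of 0.89 (SE 0.24) with 4 of 5 KO hearts above the highest WT heart and heart A below the lowest (edgeR, Benjamini-Hochberg adjusted p = 0.0299). Its edgeR Benjamini-Hochberg adjusted p was 0.0669, 0.0834, 0.0809, 0.0592, 0.0562 and 0.0545 without KO hearts 14, D and 15 and WT hearts 6, 8 and H, in a range of 0.00252 to 0.248 over all alternatives. Lpin1, a phosphatidate phosphatase and coactivator of Ppara, had a log2 fold change of 0.89 (SE 0.25) with 3 of 5 KO hearts above (edgeR, Benjamini-Hochberg adjusted p = 0.0322). That became 0.0618, 0.0953, 0.0927, 0.0503, 0.0531, 0.0685 and 0.0670 by edgeR with Benjamini-Hochberg adjustment without KO hearts 14, D and 15 and WT hearts 7, 11, 6 and 8, in a range of 0.00734 to 0.181 over all alternatives. The carnitine importer Slc22a5 fell by 0.24 on the log2 scale (SE 0.07) with 5 of 5 KO hearts below every WT heart (edgeR, Benjamini-Hochberg adjusted p = 0.0434). With single hearts left out, it was past the threshold without KO heart A or B only, and without KO hearts 14, D and 15 and WT hearts 7, 11, 6, 8, H and E its edgeR Benjamini-Hochberg adjusted p was 0.0885, 0.112, 0.101, 0.0860, 0.0698, 0.0724, 0.0594, 0.0599 and 0.0688, in a range of 0.00886 to 0.265 over all alternatives. The call on Slc22a5 was also lost with no filter beyond 1 count (edgeR, Benjamini-Hochberg adjusted p = 0.0648, log2 fold change -0.23). Fabp7, a binding protein, fell by 0.77 (SE 0.22) with 3 of 5 KO hearts below the lowest WT heart (edgeR, Benjamini-Hochberg adjusted p = 0.0339), and its log2 fold change was -0.50 without the 4 hearts above 1 CPM of Alb, of which the 3 WT hearts were its highest. Without KO hearts B, 14 and 15 and WT hearts 11, 6, H and E its edgeR Benjamini-Hochberg adjusted p was 0.0576, 0.0764, 0.0821, 0.0605, 0.0507, 0.0653 and 0.0673, in a range of 0.00513 to 0.223 over all alternatives.

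Because several members moved in the same KO hearts, their promoter windows, 250 bases before to 50 after each start from RefSeq (GRCm38.p6), were searched on both strands for 4 motifs. Windows were given for 28 of the 33 members, the others being Acaa2, Cpt1b, Decr1, Fabp4 and Lpl. The motifs were TCAAGGTCA (the estrogen-related receptor element), TGACGTCA (the cAMP response element), ACGTG (the core of the hypoxia response element) and a direct repeat of AGGTCA spaced by 1 base (bound by Ppara with its partner). The receptor element, the cAMP response element and the repeat were in 0 of the 28 members' windows, beside 0.466%, 2.03% and 0.0481% of the 27025 genes searched. ACGTG was in 5 of 28 (Ppargc1a, Slc27a1, Plin2, Lipe and Acadvl), beside 21.8% of the genes searched. It was in 4 of the 6 higher members with a window, 0 of the 2 lower and 1 of the 20 that did not pass. These calls came from the same hearts that prompted the search, and a link between the core and the calls was not tested. Members with several starts had more than 1 window, Slc27a1 with 3 and Lipe with 2 among them, and so more chances of a match. CACGTG holds this core on both strands. Ppargc1a, Slc27a1, Plin2 and Lipe all hold this core, and for each of them 14, D and 15 were the 3 highest KO hearts. Hearts 14, D and 15 were also the 3 highest for Ppara, whose window lacks the core, and for Lpl, which had no window. Acadvl holds the core, and 14 was its lowest KO heart. The upstream windows of Ppargc1a and Slc27a1 are shown as examples, with the core or the CACGTG around it in capitals. That of Ppargc1a (chr5:51567726-51567975, minus strand) lies directly upstream of the gene, overlapping it by 1 base, and that of Slc27a1 (chr8:71570344-71570593, plus strand) lies in an intron, before a later RefSeq start. A match is a description of the letters only.
Ppargc1a: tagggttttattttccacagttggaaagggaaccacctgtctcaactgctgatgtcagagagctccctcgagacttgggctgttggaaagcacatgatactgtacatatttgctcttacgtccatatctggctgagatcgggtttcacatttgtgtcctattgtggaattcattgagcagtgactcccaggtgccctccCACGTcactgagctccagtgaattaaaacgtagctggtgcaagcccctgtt
Slc27a1: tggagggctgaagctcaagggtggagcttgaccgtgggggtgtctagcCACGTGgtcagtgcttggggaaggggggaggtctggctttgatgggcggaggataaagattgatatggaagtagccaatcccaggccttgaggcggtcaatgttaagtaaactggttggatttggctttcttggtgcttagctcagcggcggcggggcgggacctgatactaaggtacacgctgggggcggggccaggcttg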

How the data were processed

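The authors deposited gene counts per library from STAR (version not given in the sources used here) on GRCm38, and the column for the stranded protocol was used; between 19.6 and 22.4% of reads in a library were counted on no gene and left out. Symbols, positions and exon lengths came from GENCODE M21, which named 55227 of 55487 identifiers. Genes with at least 10 counts over 11 hearts were fitted on genotype with edgeR 4.0.16 (TMM, quasi-likelihood test; limma 3.58.1, R 4.3.3), and p-values were adjusted over all 24177 genes. The calls were tested on simulated counts drawn independently for each gene and heart, which leave out differences between hearts that many genes share. SE is the log2 fold change divided by the root of F. Ratios used log2 CPM with a prior count of 2. Python 3.11.15 and matplotlib 3.10.9 searched promoters and drew figures. Members, lists and tests were chosen with earlier results of these data known. Named outside the members were up to 5 wider genes with the largest change past the threshold in each direction with a mean of at least 1 CPM, and from each marker list the most abundant gene and at most 2 with the largest change past it. Alternatives were DESeq2 1.42.0, its size factors in edgeR, filterByExpr, no filter beyond 1 count, counts of both strands, a prior count of 0.5, other gene lengths and each heart left out. Added after seeing the data were the principal transcript length, unshared exon length and leaving out 4 hearts above 1 CPM of Alb. Some genes of the wider list are not reported here.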

Additional observations from a re-analysis of the deposited data

How the results depend on the processing

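Beside the values given in the report, the 9 called members kept their direction under every alternative run, and all 9 stayed past the threshold under DESeq2, its size factors in edgeR, filterByExpr, no filter beyond 1 count and counts of both strands. Without each heart in turn, genes higher in KO numbered 1288 to 2887 and genes lower 414 to 2165, members higher 3 to 9 and lower 0 to 3, and wider genes higher 5 to 19 and lower 0 to 3, and the median log2 fold change of members was -0.02 to 0.04. DESeq2 gave 2354 lower genes and 4 lower wider genes, and no filter beyond 1 count gave 1 lower wider gene. Without the 4 hearts above 1 CPM of Alb, chosen after seeing the data, 482 genes were higher and 50 lower, 0 members in either direction, and 1 wider gene higher and 0 lower, with fewer hearts in each group. Members near 0 changed sign, and the cause was not tested: Acot2 with filterByExpr (log2 fold change of Acot2 -0.0023), Etfdh without the 4 hearts (0.0014), and with single hearts left out Echs1 (-0.035 to 0.019), Acot2 (-0.036 to 0.034), Fabp4 (-0.064 to 0.15), Cpt1b (-0.021 to 0.11), Cpt2 (-0.011 to 0.042), Hadha (-0.0073 to 0.048), Acadl (-0.070 to 0.0049), Etfdh (-0.052 to 0.023) and Eci1 (-0.071 to 0.0063). The log2 ratio of Cpt1b to Cpt1a differed by -0.081 to 0.031, that of Fabp3 to Fabp4 by -0.31 to -0.11 and that of Hadha to Hadhb by 0.082 to 0.15 with single hearts left out. The depth of the libraries limits Plin5, with 179 counts over 11 hearts.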
